A study of Homo sapiens with 3 samples.

Results

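Oxidative phosphorylation is carried out by 5 protein complexes of the inner mitochondrial membrane, and the genes of their subunits are described here in the colon cancer line HCT116. The genes were chosen by name from the deposited table of reads per gene: names starting NDUFA, NDUFB, NDUFC, NDUFS or NDUFV, UQCR, COX4 to COX8 or ATP5, together with CYC1, SDHA, SDHB, SDHC, SDHD and the 13 protein genes of mitochondrial DNA. Names of pseudogenes and of the NDUFAF assembly factors were left out, and a gene needed at least 60 reads summed over the libraries. Of 104 genes with such names, 86 reached that sum, out of 47971 distinct symbols in the table. They comprise 73 nuclear and 13 mitochondrially encoded genes. The rule uses names and the minimum of 60 reads, and not the differences between libraries.

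RNA was sequenced from 3 cultures. They were cells left untreated, cells 24 hours after transfection with an siRNA, a short double-stranded RNA that lowers its target mRNA, here that of CDK4, and cells 24 hours into exposure to 1 µM palbociclib. CDK4 is a cyclin D-dependent kinase of the G1 phase, and palbociclib inhibits CDK4 and its relative CDK6. Each group is 1 library from 1 cell line, so no difference has a replicate check, no test across libraries could be made, and no p-value is given. Controls with a non-targeting siRNA, with transfection reagent alone or with drug solvent were not analysed here. Effects of transfection or solvent therefore cannot be told apart from those of the siRNA or the drug.

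Complexes I and II pass electrons from NADH and succinate to ubiquinone, complex III passes them on to cytochrome c, and complex IV passes them to oxygen. Complexes I, III and IV pump protons, and complex V, the ATP synthase, uses the proton gradient to make ATP. The mitochondrial genome encodes the hydrophobic core of complexes I, III, IV and V, transcribed as long polycistronic RNAs by the mitochondrial RNA polymerase. All other subunits, and all of complex II, are made from nuclear genes by the cytosolic ribosomes and imported, so that these complexes need products of both genomes.

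Among the nuclear genes, promoter windows from RefSeq (GRCh38.p14, 250 bases before to 50 after the annotated start) were found for 58 of 73, in 70 windows. A set of 4 short motifs known from promoters of respiratory genes was searched on both strands. CCGGAAG, bound by ETS factors such as the GABP complex, occurred in 18 of 70 windows (25.7%) against 10.3% of 35116 windows of all genes. AAGATGG, the core bound by YY1, occurred in 16 (22.9%) against 5.84%. The motif of nuclear respiratory factor 1, which is GCGCA, any base and then GCGC, occurred in 13 (18.6%) against 5.78%. CCAAT, bound by NF-Y, occurred in 25 (35.7%) against 34.6%. The windows of all genes belong to 27305 symbols and were not matched to those of the nuclear genes for GC content or kind of gene. No window held overlapping matches of different motifs. The 5 windows that follow belong to the 3 nuclear genes with the lowest ratio of palbociclib to untreated (ATP5G1, NDUFB3, NDUFB1), to NDUFA3, another gene below 0.5 and one whose window holds 2 kinds of motif, and to NDUFA2, the gene with the highest ratio. They are printed on the gene's strand, 5′ to 3′, with motif matches of either strand in capitals. A match is a description of letters, not a shown binding site.
ATP5G1 (chr17:48892537-48892836, plus strand): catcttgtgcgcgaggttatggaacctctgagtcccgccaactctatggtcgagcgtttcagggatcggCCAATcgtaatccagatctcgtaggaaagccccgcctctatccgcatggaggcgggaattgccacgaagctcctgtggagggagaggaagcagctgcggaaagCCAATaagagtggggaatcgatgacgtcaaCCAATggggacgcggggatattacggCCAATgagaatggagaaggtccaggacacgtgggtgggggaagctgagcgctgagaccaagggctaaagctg
NDUFB3 (chr2:201071751-201072050, plus strand): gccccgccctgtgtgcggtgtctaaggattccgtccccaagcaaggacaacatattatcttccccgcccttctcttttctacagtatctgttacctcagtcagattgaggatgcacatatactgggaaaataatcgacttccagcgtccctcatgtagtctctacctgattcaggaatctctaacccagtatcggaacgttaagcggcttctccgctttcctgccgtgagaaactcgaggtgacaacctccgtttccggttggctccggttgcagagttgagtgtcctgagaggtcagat
NDUFB1 (chr14:92121657-92121956, minus strand): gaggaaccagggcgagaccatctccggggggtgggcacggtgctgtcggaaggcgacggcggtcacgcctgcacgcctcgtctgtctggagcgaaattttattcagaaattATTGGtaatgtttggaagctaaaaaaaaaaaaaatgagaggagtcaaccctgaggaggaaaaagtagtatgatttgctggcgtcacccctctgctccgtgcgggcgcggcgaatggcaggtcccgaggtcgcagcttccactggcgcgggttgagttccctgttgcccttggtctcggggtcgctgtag
NDUFA3 (chr19:54102605-54102904, plus strand): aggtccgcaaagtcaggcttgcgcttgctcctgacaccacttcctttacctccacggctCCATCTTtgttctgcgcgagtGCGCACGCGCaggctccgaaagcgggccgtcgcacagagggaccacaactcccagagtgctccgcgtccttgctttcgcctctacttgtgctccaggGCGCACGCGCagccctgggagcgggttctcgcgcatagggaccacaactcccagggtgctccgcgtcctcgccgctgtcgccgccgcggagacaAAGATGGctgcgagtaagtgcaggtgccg
NDUFA2 (chr5:140647581-140647880, minus strand): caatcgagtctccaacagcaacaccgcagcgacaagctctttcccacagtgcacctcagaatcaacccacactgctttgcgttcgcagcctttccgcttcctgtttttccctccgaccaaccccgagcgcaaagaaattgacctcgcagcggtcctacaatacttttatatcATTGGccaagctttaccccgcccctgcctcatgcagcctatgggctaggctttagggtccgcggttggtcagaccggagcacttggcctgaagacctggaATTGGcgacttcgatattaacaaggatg
The ATP5G1 window holds 4 CCAAT matches and the NDUFB3 window none of the motifs. NDUFB1 has 1 CCAAT match, which reads ATTGG on the printed strand, and NDUFA2 has 2. NDUFA3 has 2 YY1 and 2 nuclear respiratory factor 1 matches. CCAAT matches thus occurred at both ends of the order, in ATP5G1, NDUFB1 and NDUFA2. Among the 9 windows of genes past the 2-fold size rule with palbociclib the ETS motif occurred in 1, the YY1 motif in 2, the nuclear respiratory factor 1 motif in 2 and CCAAT in 4.

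The untreated library held 20313597 reads, the CDK4 siRNA library 18349355 and the palbociclib library 18020870. Levels between libraries are given as read counts per unit of library size (CPM) scaled with TMM factors, and where 3 values stand together they are in the order untreated, CDK4 siRNA, palbociclib. CDK4 itself, the target of the siRNA, was at 128, 53.8 and 87.8 CPM, which is 0.420 (0.391 to 0.451) of untreated with the siRNA. Each ratio is given with its 95% Clopper-Pearson interval in brackets, which covers counting error only and not the spread between cultures. A gene was counted past the size rule when its ratio was at least 2-fold on the log2 scale (prior count 2) and its interval excluded 1. The rule was applied to 12689 genes with a mean of at least 1 CPM, and all 86 genes described here are among them. In bulk RNA, fewer cells of a kind and less RNA per cell cannot be told apart. The colon epithelial markers EPCAM, KRT8, KRT18, KRT19, CDH1, CDH17, VIL1, CLDN7 and LGALS4 summed to 5204, 5063 and 4581 CPM. Of these, CDH17, LGALS4 and VIL1 were at 0 in the untreated library. The 6 fibroblast markers summed to 15.0, 22.3 and 8.99 CPM, and the 6 blood and 3 endothelial markers in the table to at most 5.67 and 0.801 CPM in any library.

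With palbociclib the 2 genomes went in opposite directions. All 13 mitochondrial mRNAs had a higher level than in untreated cells, with ratios from 1.36 to 3.27 and a median of 1.94. Of the 73 nuclear genes, 62 (84.9%) had intervals below 1, 8 included 1 and 3 were above it, with a median ratio of 0.704. By their medians, complexes I, III, IV and V each showed the split. Between untreated and CDK4 siRNA the medians of both genomes lay on the same side: the median log2 ratios were -0.11 for the mitochondrial and -0.16 for the nuclear genes. With a trend on length and GC content subtracted, they were 0.021 and -0.13 and lay on different sides of 0.

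Over all 12689 genes, 36.0% had intervals above 1 with palbociclib and 41.9% below, so the 13 of 13 and 62 of 73 stand beside those shares. An interval excludes 1 more readily where a gene has more reads, and no share of intervals here or below was matched for read number. Past the 2-fold size rule and higher were 6 of 13 mitochondrial genes and none of the 73 nuclear ones, beside 10% of all genes. Past it and lower were 10 of 73 nuclear genes, which is 13.7% beside 13.6% of all genes. Under TMM scaling the nuclear genes were thus past the 2-fold rule and lower about as often as genes at large. It was the share of modestly lower genes that stood higher. With library totals 17 of 73 were past it and lower, beside 19.1% of all genes, and with DESeq2 size factors 8, beside 13%. Shares past the rule were not matched for read number either. The median log2 ratio of all genes was -0.07, against -0.51 for the nuclear genes, with quartiles of -0.80 and -0.27, and 0.96 for the mitochondrial genes.

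The difference between the median log2 ratios of the mitochondrial and nuclear genes was 1.46 with palbociclib, a 2.75-fold gap. A scaling factor applied to a whole library cancels from this difference, apart from the small prior count. Within complex I the gap was 1.55, within complex III 1.77, within complex IV 1.19 and within complex V 2.03. With CDK4 siRNA the same differences were 0.04 over all, -0.08 in complex I, 0.14 in complex III, 0.02 in complex IV and 0.09 in complex V. Complexes III and V rest on 1 and 2 mitochondrial genes. The lowest mitochondrial ratio with palbociclib was that of MT-CO1, and 2 of 73 nuclear genes, NDUFA2 and COX7A2L, were at or above it. With CDK4 siRNA 68 of 73 nuclear genes were at or above the lowest mitochondrial ratio, that of MT-ND2.

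**Figure D1:**
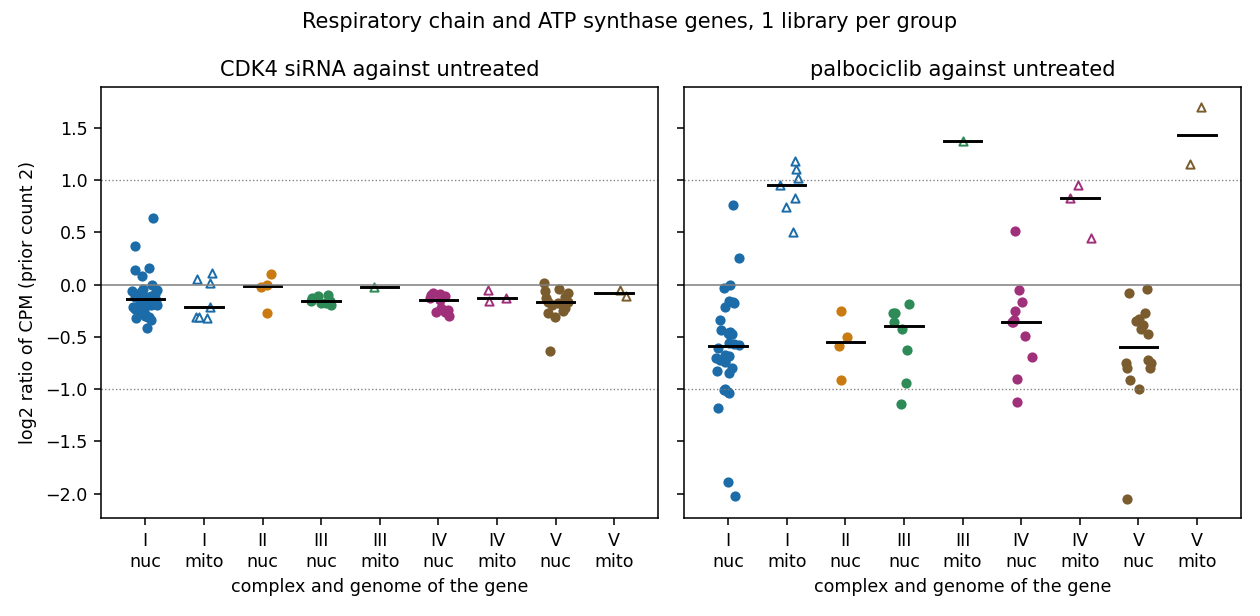
Log2 ratio of CPM for each of the 86 genes (y axis) by complex and genome (x axis), for CDK4 siRNA (left) and palbociclib (right) against untreated; filled circles are nuclear and open triangles mitochondrial genes, bars are medians and dotted lines mark 2-fold. With palbociclib the mitochondrial medians sit above 0 and the nuclear medians between -0.36 and -0.60, while with CDK4 siRNA both lie near 0.

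As a share of all reads, the 13 mitochondrial mRNAs held 4.02% (4.01 to 4.03) of the untreated, 3.85% (3.84 to 3.86) of the CDK4 siRNA and 6.53% (6.52 to 6.54) of the palbociclib library. The 73 nuclear genes held 0.891% (0.887 to 0.895), 0.842% (0.838 to 0.847) and 0.550% (0.547 to 0.554). The mitochondrial share was thus highest, and the nuclear share lowest, in the palbociclib library. Among 5 structural and nuclear non-coding RNAs compared, 4 were past the size rule and higher there, beside 10% of all genes. RNA28S5, the 28S ribosomal RNA gene, had 2085, 2549 and 7759 reads, a palbociclib to untreated ratio of 4.81 (4.59 to 5.05). MALAT1, a nuclear long non-coding RNA, had 1355, 2211 and 13502 reads, a ratio of 12.9 (12.2 to 13.6). RPPH1, the RNA of nuclear RNase P, had few reads, 25, 6 and 114, and a ratio of 5.90 (3.80 to 9.50). NEAT1 was at 2.18 (1.91 to 2.49) and RN7SL1, of the signal recognition particle, at 1.11 (1.08 to 1.15). The part of library composition in the mitochondrial result was not tested.

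Ranked by level per gene length in the deposited FPKM, the mitochondrial mRNAs were the most abundant members by far. Their FPKM values made up 88.2%, 88.4% and 95.4% of the summed FPKM of all 86 genes. MT-CO2, a catalytic subunit of complex IV, was the highest in untreated cells at 7421 FPKM, and 7072 and 11515 FPKM in the other libraries. MT-ATP6, the proton channel subunit of complex V, was at 5965, 5726 and 11586 FPKM. MT-ATP8 was the exception, at 58.3, 58.4 and 166 FPKM. Its gene shares 46 bases with MT-ATP6, with which it is made on a single mRNA in human cells, and how reads in the shared stretch were counted is not given in the sources used here. Apart from MT-ATP8, the lowest was MT-ND5 at 939, 1011 and 1587 FPKM, still above the highest nuclear gene, ATP5B, at 557 FPKM in untreated cells.

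**Figure D2:**
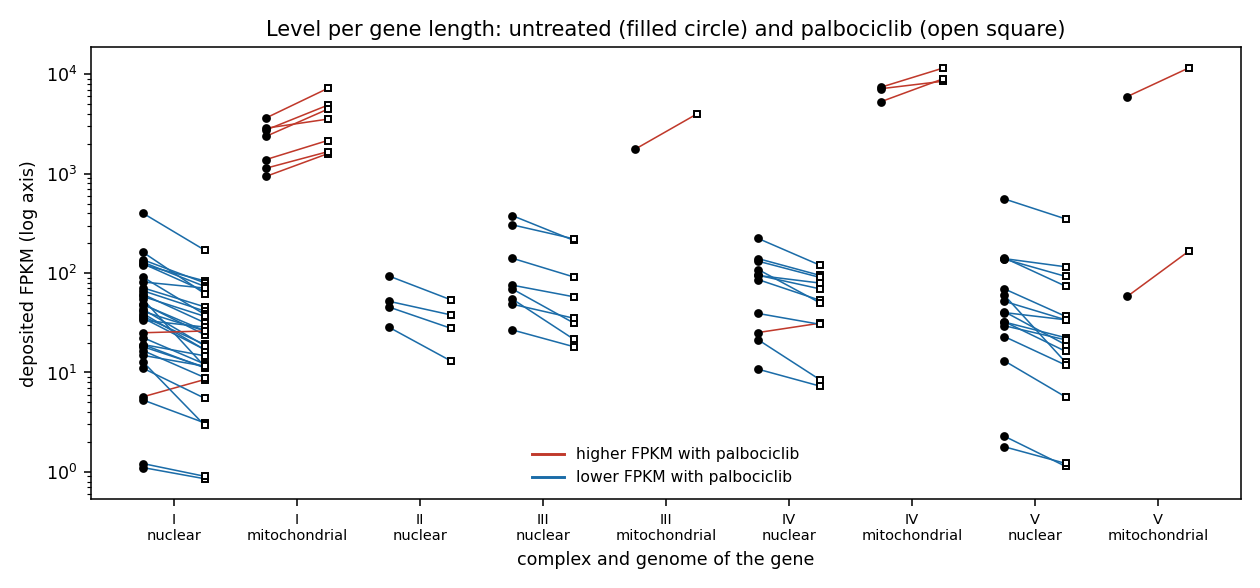
Deposited FPKM (log axis) of each gene in the untreated (filled circle) and palbociclib (open square) library, by complex and genome; a line joins the same gene and is red where FPKM is higher with palbociclib. All mitochondrial lines go up and nearly all nuclear lines go down, and FPKM here is scaled by library total, not TMM.

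The 7 mitochondrial genes of complex I encode subunits of its proton-pumping membrane arm. MT-ND1 was at 2545, 2053 and 5176 CPM, MT-ND2 at 2394, 1924 and 5141 CPM and MT-ND4 at 4844, 4894 and 11010 CPM. These 3 were past the size rule with palbociclib, at 2.03 (2.01 to 2.06), 2.15 (2.12 to 2.17) and 2.27 (2.26 to 2.29), and in each the palbociclib library stood well above both others. With scaling by library totals alone these ratios were 1.77, 1.87 and 1.98, and none of the 3 was past the rule. MT-ND5 was at 1646, 1707 and 3192 CPM, a ratio of 1.94 (1.91 to 1.97). MT-ND4L was at 398, 343 and 710.1 CPM, a ratio of 1.78 (1.73 to 1.83). MT-ND3, at 959.5, 775 and 1358 CPM, had the smallest ratio of the 7, 1.42 (1.39 to 1.44). MT-ND6, the sole one of the 13 annotated on the light strand, was also highest with palbociclib, at 576, 622 and 968 CPM and a ratio of 1.68 (1.64 to 1.72). Since the strand setting of the counting is not given, reads of the opposite strand may be among those counted for MT-ND6.

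MT-CYB, cytochrome b and the mitochondrial gene of complex III, was at 1946, 1916 and 5033 CPM. Its ratio of 2.59 (2.56 to 2.62) with palbociclib was past the size rule, while its ratio with CDK4 siRNA was 0.985 (0.971 to 0.999). In complex IV, MT-CO1, which holds the site of oxygen reduction, was at 10680, 9598 and 14548 CPM, and its ratio of 1.36 (1.35 to 1.37) was the smallest of the 13. MT-CO2 was at 4910, 4506 and 8743 CPM, a ratio of 1.78 (1.77 to 1.80), and MT-CO3 at 4027, 3895 and 7809 CPM, a ratio of 1.94 (1.92 to 1.96). No complex IV gene of mitochondrial DNA was past the size rule. In complex V, MT-ATP6 was at 3929, 3632 and 8758 CPM, a ratio of 2.23 (2.21 to 2.25), and MT-ATP8 at 11.7, 11.3 and 38.2 CPM, a ratio of 3.27 (2.82 to 3.81), both past the rule. With library totals MT-ATP6 was at 1.94 and no longer past it, while MT-ATP8 and MT-CYB were. MT-ATP8 rests on 245, 222 and 620 reads, far fewer than any other mitochondrial gene.

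Along the genome the palbociclib ratios did not run in order of position. The highest after MT-ATP8 was that of MT-CYB, the last gene in order, and neighbours differed beyond counting error, as MT-ND2 at 2.15 beside MT-CO1 at 1.36 and MT-ND3 at 1.42 beside MT-CO3 at 1.94. MT-ND4L and MT-ND4, which overlap by 7 bases and share an mRNA in human cells, differed too, at 1.78 and 2.27. With CDK4 siRNA the order of the genes was another: MT-ND1, MT-ND2 and MT-ND3 were lowest, at 0.807 (0.797 to 0.817), 0.804 (0.793 to 0.814) and 0.808 (0.791 to 0.825), and MT-ND5 and MT-ND6 were slightly above 1, at 1.04 (1.02 to 1.05) and 1.08 (1.05 to 1.11). The lengths in the deposited FPKM equal those of RefSeq for 13 of 13 genes. No mitochondrial rRNA or tRNA entry was among the names of the table used here.

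**Figure D3:**
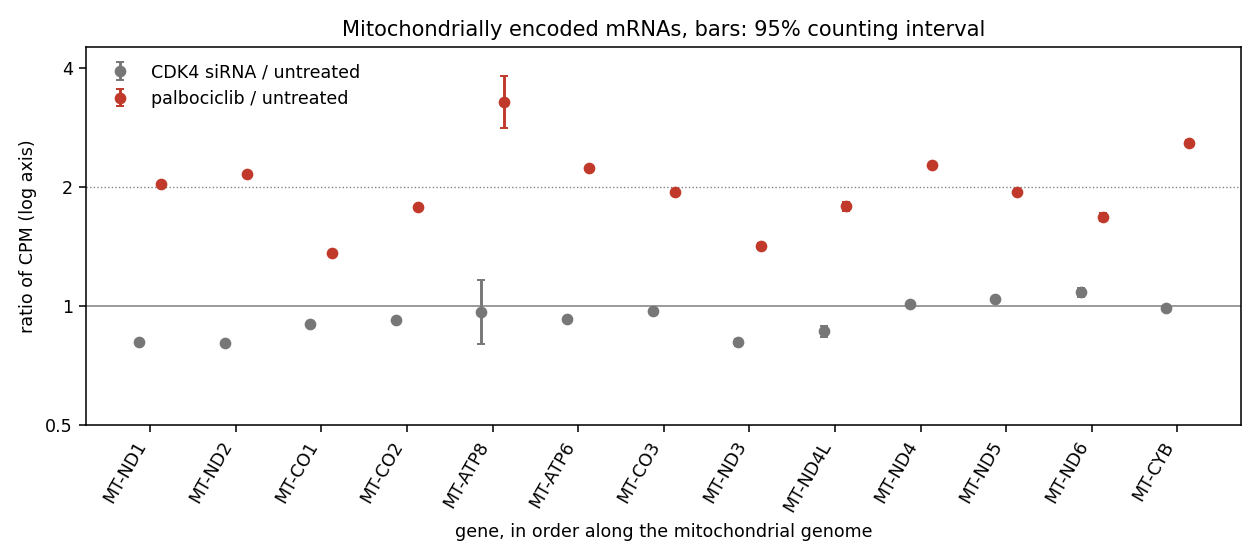
Ratio of CPM to untreated (log axis) for the 13 mitochondrial mRNAs in their order along the mitochondrial genome, for CDK4 siRNA (grey) and palbociclib (red); bars are 95% counting intervals, mostly smaller than the points, and the dotted line marks 2-fold. All palbociclib points lie between 1.36 and 3.27, and the siRNA points between 0.804 and 1.08.

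Nuclear copies of mitochondrial genes can share reads with them. Of 188 such names 167 had no read. The 4 with a mean of at least 1 CPM were all past the size rule and higher with palbociclib, beside 10% of all genes. MTATP6P1, a copy of MT-ATP6, had 5395, 4405 and 12739 reads, a ratio of 3.05 (2.96 to 3.15), and MTND2P28 had 580, 435 and 1055 reads, a ratio of 2.35 (2.12 to 2.61). With MTATP6P1 added to MT-ATP6, where it made up 6.14% of the sum in the untreated library, the ratio was 2.28 (2.26 to 2.30) in place of 2.23.

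Nuclear subunits of complex I numbered 34, and 28 of them (82.4%, beside 41.9% of all genes) had intervals below 1 with palbociclib, with a median log2 ratio of -0.59. Past the size rule and lower were 7 (20.6%), beside 13.6% of all genes. NDUFB3, an accessory subunit of the membrane arm, was at 39.8, 34.4 and 9.67 CPM, a ratio of 0.243 (0.204 to 0.289). NDUFB1, also of the membrane arm, was at 16.5, 16.0 and 4.37 CPM, a ratio of 0.265 (0.203 to 0.344). In both, the CDK4 siRNA library was far closer to the untreated one, and the palbociclib library stood far below it. NDUFB10, a membrane arm subunit as well, was at 150.0, 121 and 66.2 CPM, a ratio of 0.441 (0.411 to 0.473). NDUFA8 was at 87.9, 74.8 and 42.7 CPM, a ratio of 0.486 (0.444 to 0.530), and NDUFS5, its neighbour on the intermembrane face of the complex, at 212, 182 and 104 CPM, a ratio of 0.490 (0.463 to 0.518). NDUFA3, a small membrane subunit, was at 36.5, 30.7 and 18.2 CPM, a ratio of 0.498 (0.434 to 0.571). These 4 and NDUFS3 were graded across the libraries, with the CDK4 siRNA level between the other two.

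Core subunits of complex I, which carry its flavin, its iron-sulphur clusters and its ubiquinone site and are conserved from bacteria, had a median log2 ratio of -0.37 over 6 nuclear genes. The 28 accessory subunits had -0.64, with 24 of 28 intervals below 1 (85.7%, beside 41.9% of all genes). Among the core, NDUFS3 was at 73.9, 59.9 and 36.6 CPM and was past the size rule at 0.495 (0.449 to 0.544). With DESeq2 size factors NDUFS3 was at 0.503 and NDUFA3 at 0.506, both short of it. NDUFS1, which holds several iron-sulphur clusters, was at 96.2, 90.4 and 64.4 CPM, a ratio of 0.670 (0.621 to 0.722). NDUFS7 was nearer to untreated, at 53.8, 57.1 and 48.1 CPM and 0.894 (0.815 to 0.980). NDUFV1, which binds NADH and the flavin, was at 138, 154 and 137 CPM, and its interval included 1, at 0.997 (0.943 to 1.05). NDUFS8, an iron-sulphur subunit, was the reverse of the majority at 74.6, 82.1 and 89.1 CPM, highest with palbociclib at 1.20 (1.11 to 1.28). The 6 core genes thus ran from 0.495 to 1.20 within a single library pair.

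Accessory subunits of complex I that did not follow the majority were few. NDUFA2 was at 4.43, 5.74 and 7.58 CPM and had the highest ratio of all 73 nuclear genes, 1.71 (1.30 to 2.26), on 93, 113 and 123 reads. NDUFS4, a subunit of the matrix arm whose loss in people causes Leigh syndrome, was at 27.0, 26.9 and 26.5 CPM, with a ratio of 0.979 (0.862 to 1.11) whose interval included 1. NDUFA4, counted here with complex I by its name and now known as a subunit of complex IV, was at 84.8, 74.1 and 62.1 CPM, a ratio of 0.732 (0.677 to 0.791). Per length NDUFS5 was the highest of the 34 in untreated cells at 400 FPKM and NDUFA11, a membrane arm subunit, the lowest at 1.10 FPKM.

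Succinate dehydrogenase, complex II, also serves the tricarboxylic acid cycle and has no mitochondrially encoded subunit. All 4 genes had intervals below 1 with palbociclib, beside 41.9% of all genes, and none was past the size rule. SDHA, the flavoprotein that oxidises succinate, was at 151, 151 and 127 CPM, a ratio of 0.839 (0.793 to 0.887). SDHB, the iron-sulphur subunit, was at 104, 86.0 and 69.0 CPM, a ratio of 0.664 (0.617 to 0.714). SDHC was at 62.5, 66.9 and 44.0 CPM, a ratio of 0.704 (0.642 to 0.772), and its partner in the membrane anchor, SDHD, at 39.6, 39.1 and 20.9 CPM, a ratio of 0.529 (0.465 to 0.60). The palbociclib level was lowest for each gene, and the intervals of SDHA and SDHD did not overlap, so that the 4 were not lower to the same extent.

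All 8 nuclear genes of complex III had intervals below 1 with palbociclib, beside 41.9% of all genes. Their median log2 ratio was -0.39, or -0.59 with library totals. UQCRC2, a core protein of the complex, was at 139, 129 and 62.8 CPM and was past the size rule at 0.452 (0.421 to 0.486). UQCRC1, the other core protein, was at 271, 243 and 201 CPM, a ratio of 0.744 (0.712 to 0.776), whose interval lay wholly above that of UQCRC2. CYC1, cytochrome c1, was at 672, 627 and 434 CPM, a ratio of 0.646 (0.628 to 0.665). UQCRFS1, the Rieske iron-sulphur protein, was closest to untreated at 112, 98.9 and 98.1 CPM and 0.877 (0.822 to 0.935). Per length, CYC1 was the highest nuclear gene of the complex in untreated cells at 379 FPKM, and UQCRB the lowest at 26.8 FPKM, while UQCRH was the highest with palbociclib at 221 FPKM.

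Complex IV had 11 nuclear genes by name, of which 8 (72.7%, beside 41.9% of all genes) had intervals below 1, with a median log2 ratio of -0.36. With library totals that median was -0.55, and with a trend on length and GC content subtracted -0.24. COX7B was at 50.9, 42.5 and 23.3 CPM and alone was past the size rule, at 0.457 (0.405 to 0.514). COX4I1, the widely expressed isoform of the largest nuclear subunit, was at 361, 305 and 348 CPM, lowest with CDK4 siRNA and at 0.963 (0.930 to 0.997) with palbociclib. COX6A1 was at 8.0, 6.65 and 6.22 CPM, a ratio of 0.778 (0.602 to 1.00), and COX8A at 19.2, 15.6 and 17.2 CPM, a ratio of 0.893 (0.764 to 1.04). Both intervals reached 1. COX6B1, the highest nuclear gene of the complex per length at 223 FPKM in untreated cells, was at 144, 123 and 89.1 CPM, a ratio of 0.620 (0.582 to 0.660). COX7A2 was at 124, 113 and 96.3 CPM, a ratio of 0.780 (0.732 to 0.830). COX7A2L, which carries the name of this family but links complexes III and IV into supercomplexes, was at 74.6, 69.0 and 106 CPM, a ratio of 1.42 (1.33 to 1.53). The palbociclib library was thus the lowest for COX7A2 and the highest for COX7A2L.

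Tissue isoforms of complex IV were at or near 0 in each library. COX4I2, an isoform of lung, had 1 read in all, COX6A2 and COX7B2 had none, COX7A1, the isoform of heart and skeletal muscle, had 8, 5 and 5 reads, and COX6B2, the isoform of testis, had 14, 12 and 4 reads. COX8C had no read. NDUFA4L2, a paralogue of NDUFA4 induced by hypoxia, had 13, 11 and 11 reads. The isoforms present were those known from most tissues, in all 3 libraries.

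Complex V had 16 nuclear genes by name, and 14 (87.5%, beside 41.9% of all genes) had intervals below 1 with palbociclib. The 2 whose intervals included 1 are not subunits of the complex, though their names put them here. The median log2 ratio of the 16 was -0.60. The 5 genes of the F1 head, which makes ATP, had a median of -0.38. ATP5B, the catalytic beta subunit and the most abundant nuclear member, was at 965, 935 and 695 CPM, a ratio of 0.721 (0.704 to 0.738), and ATP5A1, the alpha subunit, at 609, 543 and 467 CPM, a ratio of 0.767 (0.745 to 0.789). ATP5C1, the gamma subunit of the central stalk, was lower, at 160.0, 142 and 95.1 CPM and 0.594 (0.559 to 0.632). ATP5D, the delta subunit, was at 215, 203 and 204 CPM and 0.949 (0.907 to 0.993), and ATP5E, the epsilon subunit, at 114, 99.2 and 91.0 CPM and 0.797 (0.747 to 0.851). So the 3 subunits of the central stalk were spread from 0.594 to 0.949. The 4 genes of the peripheral stalk, which holds the head in place, had a median of -0.76. ATP5O, of that stalk, was the lowest nuclear subunit of the complex per length at 2.29 FPKM in untreated cells, with 132, 79 and 58 reads.

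Subunit c forms the ring of the ATP synthase that turns with the passage of protons, and 3 genes encode the same mature protein behind different import sequences. ATP5G1 had the lowest palbociclib ratio of all 73 nuclear genes, with 2701, 2562 and 503 reads, 129, 130.1 and 31.0 CPM and a ratio of 0.241 (0.219 to 0.265). ATP5G2 was at 99.5, 86.7 and 74.2 CPM, a ratio of 0.746 (0.695 to 0.801), and ATP5G3 at 217, 208 and 115 CPM, a ratio of 0.531 (0.503 to 0.561). The 3 intervals did not overlap each other. Per length, ATP5G1 was the highest of the 3 in untreated cells at 60.1 FPKM and with CDK4 siRNA at 63.1 FPKM, and the lowest with palbociclib at 12.6 FPKM. Its share of the summed FPKM of the 3 genes went from 39.2% and 41.8% to 19.3%. ATP5G2 took 34.0%, 31.2% and 51.7%, and ATP5G3 26.8%, 27.0% and 29%. The sum itself was 153, 151 and 65.4 FPKM.

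**Figure D4:**
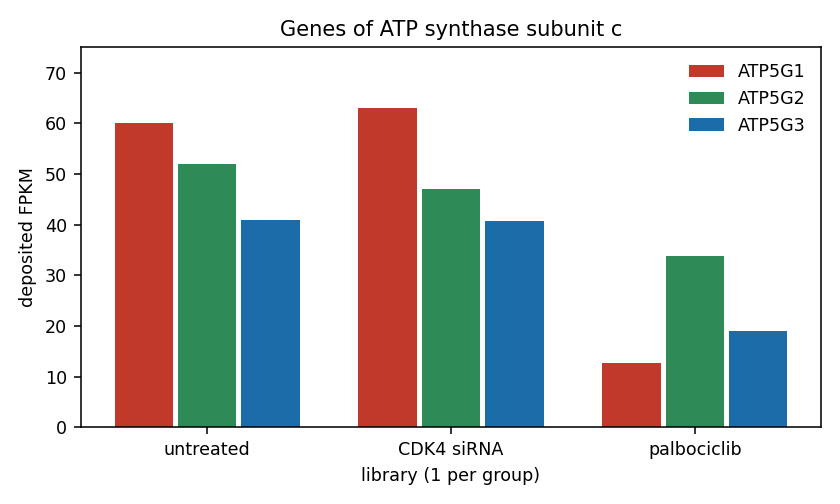
Deposited FPKM (y axis, from 0) of the 3 genes of ATP synthase subunit c in each library (x axis), 1 library per group. ATP5G1 is the tallest bar in the untreated and CDK4 siRNA libraries, at 60.1 and 63.1, and the shortest with palbociclib, at 12.6.

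Over the 73 nuclear genes the order of the palbociclib ratios had little to do with abundance or length. Spearman's rho across genes was -0.08 with the untreated FPKM and 0.14 with gene length, a description over genes of the same 2 libraries. ATP5G1, NDUFB3 and NDUFB1 formed a group of their own at the low end. Their intervals reached no higher than 0.344, and the next gene, NDUFB10, began at 0.411. At the high end NDUFA2, COX7A2L and NDUFS8 were the only genes with intervals wholly above 1. ATP5SL, which despite its name serves complex I assembly, was at 89.8, 77.0 and 87.1 CPM, a ratio of 0.970 (0.905 to 1.04). ATP5J2, subunit f of complex V, lay at 0.496 (0.378 to 0.646), just short of the size rule after the prior count.

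**Figure D5:**
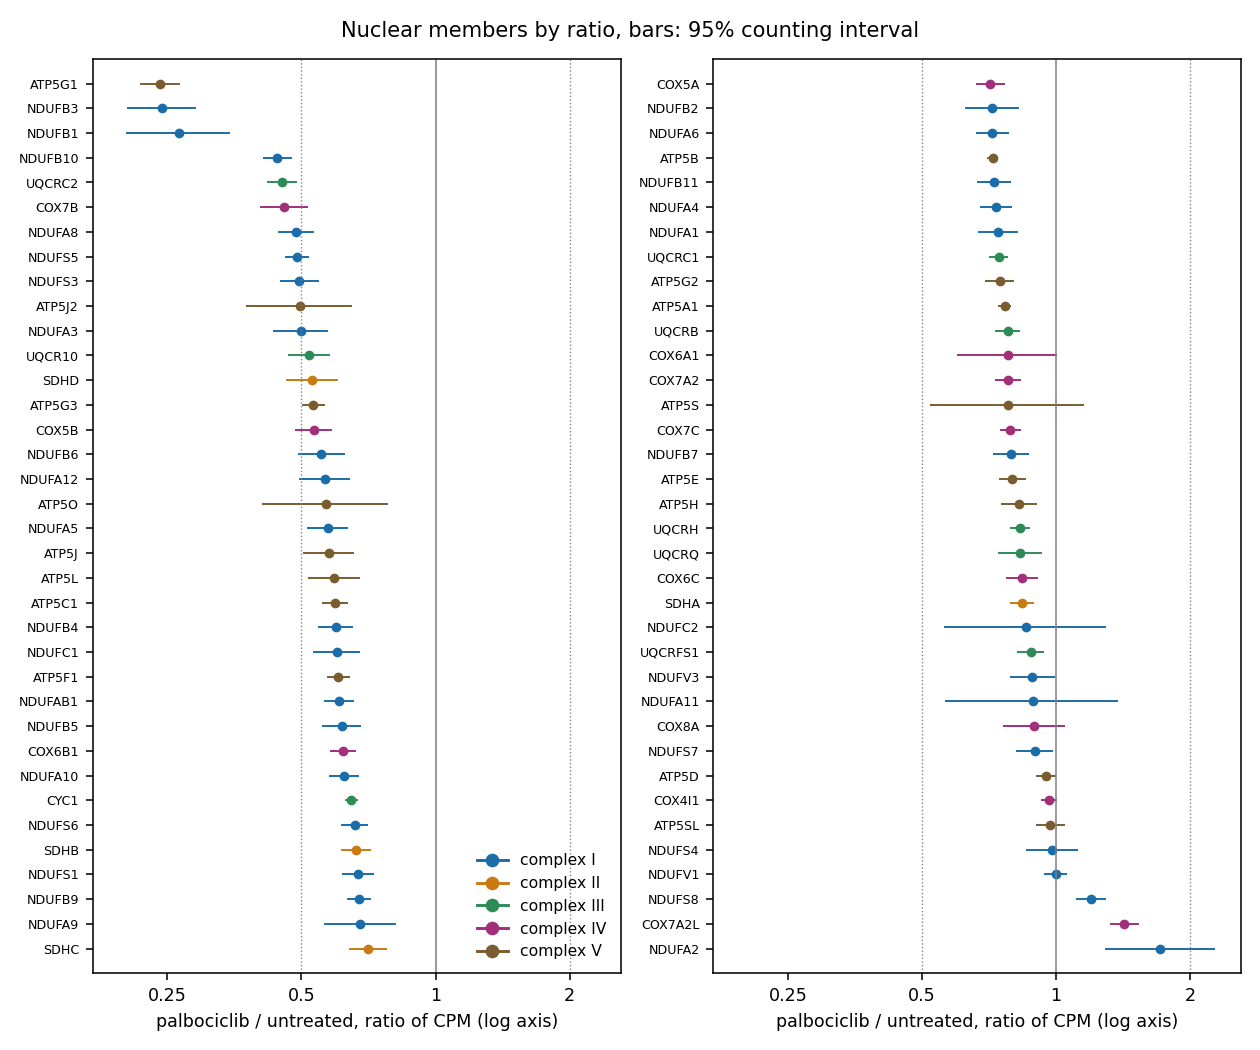
Ratio of CPM, palbociclib to untreated (log axis), for the nuclear genes shown, from lowest (top left) to highest (bottom right), coloured by complex; bars are 95% counting intervals, and dotted lines mark 2-fold. ATP5G1, NDUFB3 and NDUFB1 lie between 0.241 and 0.265, apart from the rest, and 3 genes at the end of the order lie above 1.

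With CDK4 siRNA none of the 86 genes was past the size rule, in either direction, beside 1.1% of all genes higher and 0.118% lower. Small shifts were still beyond counting error for many: 46 of 73 nuclear genes had intervals below 1 and 3 above, beside 23.7% and 17.7% of all genes. These shares were not matched for read number, and the intervals were counted under TMM scaling alone. The nuclear median log2 ratio was -0.10 with library totals, beside 0.03 for all genes, and -0.19 with DESeq2 size factors, beside -0.05. All 8 nuclear genes of complex III were below 1, from 0.872 for UQCR10 to 0.933 for CYC1. The nuclear medians were -0.14 in complex I, -0.01 in complex II, -0.16 in complex III, -0.14 in complex IV and -0.17 in complex V, beside -0.02 for all genes. The lowest nuclear genes were ATP5O at 6.29, 4.01 and 3.57 CPM and 0.638 (0.477 to 0.850), NDUFA12 at 38.5, 28.8 and 21.7 CPM and 0.748 (0.671 to 0.834), and NDUFS6 at 134, 107 and 88.4 CPM and 0.793 (0.749 to 0.839). NDUFA12 and NDUFS6 belong to the matrix arm of complex I. The highest were NDUFA11 at 2.57, 4.06 and 2.28 CPM and 1.58 (1.10 to 2.27), NDUFA2 at 1.30 (0.976 to 1.72) with an interval that included 1, and NDUFV1 at 1.12 (1.06 to 1.18). ATP5G1, the lowest with palbociclib, was at 1.01 (0.958 to 1.07).

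Set directly against the CDK4 siRNA library, the palbociclib library gave the same opposite directions of the 2 genomes. Both comparisons use the same palbociclib library. All 13 mitochondrial mRNAs had intervals above 1, beside 35.8% of all genes. Past the size rule and higher were 8 of 13, beside 8.76%, and the median log2 ratio was 1.05. MT-ATP8 was highest at 3.39 (2.90 to 3.97) and MT-CO1 lowest at 1.52 (1.51 to 1.52). Of the nuclear genes 57 of 73 had intervals below 1, beside 41.4%, with a median of -0.41. Against untreated, 13.7% of them had been past the rule and lower, beside 13.6% of all genes. Here 4 (5.48%) were, beside 13.8%. They were ATP5G1 at 0.238 (0.216 to 0.262), NDUFB1 at 0.274 (0.208 to 0.355), NDUFB3 at 0.281 (0.235 to 0.335) and UQCRC2 at 0.486 (0.451 to 0.523). UQCRFS1, ATP5D and NDUFS4 had intervals that included 1, at 0.992 (0.928 to 1.06), 1.00 (0.957 to 1.05) and 0.984 (0.865 to 1.12).

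Assembly factors put the subunits together and are not part of the finished complexes. Of 42 compared, 26 (61.9%) had intervals below 1 with palbociclib and 8 (19.0%) above, beside 41.9% and 36.0% of all genes. The median log2 ratio was -0.45, and 8 (19.0%) were past the size rule, all lower, beside 13.6% of all genes. MNF1, needed for complex III and cytochrome b synthesis, was at 36.7, 33.0 and 8.01 CPM, a ratio of 0.218 (0.180 to 0.263), and COA3, which serves complex IV, at 30.8, 29.7 and 7.39 CPM, a ratio of 0.240 (0.196 to 0.292). BCS1L, which inserts the Rieske protein UQCRFS1 into complex III, was at 46.6, 45.6 and 17.4 CPM, a ratio of 0.374 (0.327 to 0.428), lower than its client. ATPAF1, a chaperone of the F1 head, was at 0.312 (0.268 to 0.362). TTC19 of complex III and ECSIT of complex I were in the other direction, at 1.70 (1.56 to 1.84) and 1.59 (1.47 to 1.72).

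Genes that copy, transcribe and process mitochondrial DNA and RNA are nuclear, and 28 were compared. With palbociclib 16 (57.1%) had intervals below 1 and 7 (25%) above, beside 41.9% and 36.0% of all genes. The median log2 ratio was -0.14, and 6 (21.4%) were past the size rule, all lower, beside 13.6% of all genes. POLRMT, the mitochondrial RNA polymerase, was at 583, 594 and 905 CPM, highest with palbociclib at 1.55 (1.51 to 1.59). TFB2M, its initiation factor, was at 45.8, 40.6 and 71.6 CPM and 1.56 (1.43 to 1.71), and C10orf2, the Twinkle helicase of mitochondrial DNA replication, at 131, 123 and 245 CPM and 1.86 (1.78 to 1.96). These 3 were among the 7 with intervals above 1, none was past the size rule, and a link to the mitochondrial mRNAs was not tested. TFAM, which packages mitochondrial DNA and activates its transcription, was at 85.5, 75.6 and 77.3 CPM, a ratio of 0.904 (0.840 to 0.972). LRPPRC and SLIRP form a complex that stabilises mitochondrial mRNAs, and they differed, at 0.942 (0.910 to 0.975) and 0.379 (0.341 to 0.422). SSBP1, the single-strand DNA binding protein, was at 0.451 (0.418 to 0.486). With CDK4 siRNA none of the 28 was past the rule, beside only 1.1% of all genes higher and 0.118% lower, and the median was -0.13.

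Factors known to act on nuclear respiratory genes showed no common direction among 12 compared, with a median log2 ratio of -0.13 with palbociclib. MYC was at 548, 592 and 1214 CPM, past the size rule and higher at 2.22 (2.16 to 2.27). PPARGC1B, a coactivator, was at 26.5, 27.5 and 12.8 CPM, past it and lower at 0.484 (0.411 to 0.569). NRF1, which binds the motif searched above, was at 32.5, 33.3 and 26.7 CPM, a ratio of 0.820 (0.725 to 0.926). PPARGC1A, the related coactivator, had 0, 1 and 0 reads and was therefore not detectable at this depth beyond a single read.

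Below the minimum of 60 reads were 18 genes, of which 4 had no read. Just inside lay NDUFC2 with 62, 52 and 41 reads, and just outside NDUFB8 with 24, 9 and 8, NDUFA13 with 7, 19 and 14 and ATP5I with 13, 17 and 9. NDUFV2, a core subunit of complex I that every active complex contains, had 11, 8 and 12 reads, a number that may depend on a counting rule not given in the sources used here. In the GENCODE v29 annotation (GRCh38) the 18 genes shared a median of 24.7% of their exon bases with another gene, and 3 of them at least 50%. The 73 nuclear members had a median of 0.0835% and none at 50%. Of those 3, NDUFC2-KCTD14 and ATP5J2-PTCD1, at 100% and 93.8%, are names that join neighbouring genes, and ATP5I was at 61.6%. NDUFB8, NDUFV2 and NDUFA13 were at 48.5%, 28.4% and 21.0%, while the member NDUFS7 was at 49.1%. Whether shared exons set the low counts was not tested. NDUFB8, NDUFA13, ATP5I and NDUFV2 are therefore given as reads alone.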

How the data were processed

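mRNA levels come from 3 sequencing libraries of HCT116 cells, 1 per group. The submitters' processing notes name the hg19 build, HTSeq 0.6.1 and DESeq. Aligner, annotation, strand setting and RNA selection are not given in the sources, so reads of a gene and of an overlapping or antisense neighbour may not have been told apart. The deposited counts are whole numbers of reads per gene, without normalisation. The FPKM values deposited by the authors are these counts per gene length and library size, which held within a relative deviation of 5e-12 over 16938 genes. They were used for levels between genes and as 1 of the alternatives.

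The tables have 48162 entries under 47971 distinct symbols, and of several entries of a symbol the most highly counted was used. From the counts, edgeR 4.0.16 in R 4.3.3 gave TMM factors (untreated 1.03, CDK4 siRNA 1.07, palbociclib 0.901), and CPM was taken on the scaled totals. Ratios of CPM have exact Clopper-Pearson 95% intervals (scipy 1.17.1), and log2 ratios a prior count of 2. A gene past the size rule has an absolute log2 ratio of at least 1 and an interval that excludes 1, among the 12689 genes whose mean CPM reached 1. The intervals and the size rule were tried on simulated counts with known library sizes and no spread between cultures. The TMM scaling and the choice of entry were not part of that trial. Reads of PCR copies are not independent molecules, so intervals cover counting error only. The total reads of 18020870 to 20313597 per library set that error.

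Some single genes of these groups are not reported here by name, and they stay in the counts and medians. The genes, the lists beside them and the rules were chosen with earlier results of these data known. Named were all mitochondrial mRNAs, the nuclear genes at both ends of the order with palbociclib (6 highest and 8 lowest) and with CDK4 siRNA (3 highest and 3 lowest), every gene past the size rule, catalytic and core subunits, isoform groups, complex II, the highest and lowest per length, those beside the read threshold, and at most 6 genes per other list besides a few chosen by name. A few others, such as UQCR10, were named after their values were seen. Sequences and motif searches used RefSeq windows of GRCh38.p14, and no coordinates of the files were used. Alternatives were library totals, DESeq2 1.42.0 size factors, TMM without mitochondrial genes, deposited FPKM, other prior counts and filters, summed entries, a trend with length and GC content, and a 1.5-fold rule.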

Additional observations from a re-analysis of the deposited data

How the results depend on the processing

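The opposite directions of the genomes with palbociclib held under every scaling tried, but the counts past the size rule did not. With library totals alone, which move the median log2 ratio of all genes from -0.07 to -0.27 with palbociclib against untreated and from -0.08 to -0.33 against CDK4 siRNA, 17 nuclear genes were past the rule and lower and 2 mitochondrial genes past it and higher, with medians of -0.70 and 0.76. Of all genes 19.1% were then past it and lower and 6.63% higher. Against CDK4 siRNA these were 14, 5, -0.66 and 0.80, beside 20.9% and 5.16%. The mitochondrial median with CDK4 siRNA was -0.059. The deposited FPKM, scaled by the same totals, gave the same 9 values. DESeq2 size factors left 8 nuclear genes lower with palbociclib, without NDUFA3 and NDUFS3 and beside 13% of all genes. They ended the call of UQCRC2 against CDK4 siRNA. They gave mitochondrial medians of -0.15 with CDK4 siRNA, 0.98 with palbociclib and 1.11 between them. With a trend on length and GC content subtracted, the mitochondrial median with CDK4 siRNA turned to 0.021, 6 nuclear genes were past the rule and lower with palbociclib, without NDUFA3, NDUFA8, NDUFS3 and NDUFS5 and beside 13.5% of all genes, and the mitochondrial medians were 1.06 against untreated and 0.96 against CDK4 siRNA. The cause was not tested. At 1.5-fold, 1 nuclear gene was higher and 1 lower with CDK4 siRNA, 1 higher and 33 lower with palbociclib, and 1 higher and 19 lower between them, with 11 and 13 mitochondrial genes higher. The shares of all genes were then 3.79% higher and 0.906% lower, 20.3% and 25.3%, and 19.5% and 25.8%. Per read outside mitochondrial and ribosomal RNA entries, mitochondrial reads came to 4.19%, 4.01% and 6.99% in the 3 libraries, a ratio and not a share. With TMM without mitochondrial genes, a prior count of 0.5 or a mean of at least 5 CPM, 33 of 33 results stayed within limits. The same held with summed entries and with subunits alone. Those limits were 1.5-fold for a count and the median counting interval of the set for a median. Single calls could still move: TMM without mitochondrial genes ended that of NDUFA3 with palbociclib, and a prior count of 0.5 added ATP5J2. Leaving out the CPM filter could change nothing, since all 86 genes passed it. No paired analysis was possible because each group has 1 library, and no library could be left out for the same reason. Depth limits genes such as NDUFC2, NDUFA11, NDUFA2 and ATP5O, with few reads, and no alternative stands in for replicate cultures.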

Other observations

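Beside the complexes themselves, carriers of electrons, nucleotides and ubiquinone precursors had a median log2 ratio of -0.40 over 23 genes with palbociclib, with 17 intervals (73.9%) below 1 and 5 (21.7%) above, beside 41.9% and 36.0% of all genes. Past the size rule were 6 genes (26.1%) lower and 1 (4.35%) higher, beside 13.6% and 10% of all genes. The ADP/ATP carriers, which exchange the product of ATP synthase for its substrate, differed by gene. SLC25A4 was at 51.9, 42.4 and 19.1 CPM, a ratio of 0.368 (0.323 to 0.418), SLC25A5 at 476, 425 and 309 CPM, a ratio of 0.650 (0.628 to 0.673), and SLC25A6 at 509.7, 502 and 1216 CPM, a ratio of 2.39 (2.33 to 2.44). SLC25A6 was thus the one past the rule and higher. CYCS, cytochrome c, which carries electrons from complex III to complex IV, was at 440.1, 374 and 350.2 CPM, a ratio of 0.796 (0.770 to 0.823). ATPIF1, the inhibitor of ATP hydrolysis by complex V, was at 83.2, 74.6 and 39.7 CPM, a ratio of 0.478 (0.436 to 0.523). COQ3 of ubiquinone synthesis was at 0.273 (0.212 to 0.348) and VDAC3, a porin of the outer membrane, at 0.326 (0.303 to 0.351). None of the 23 was past the rule with CDK4 siRNA, beside only 1.1% of all genes higher and 0.118% lower.

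In the tricarboxylic acid cycle and its pyruvate entry, 14 of 18 genes (77.8%) had intervals below 1 with palbociclib and 3 (16.7%) above. Of all genes 41.9% were below and 36.0% above. The median log2 ratio of the 18 was -0.43. Past the size rule and lower were 3, which is 16.7% and near the 13.6% of all genes, namely IDH2 at 0.368 (0.311 to 0.434), SUCLG2 at 0.386 (0.342 to 0.434) and FH, fumarase, at 0.391 (0.352 to 0.435). With CDK4 siRNA none was past the rule, beside only 1.1% of all genes higher and 0.118% lower, and the median was -0.12.

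Of 102 pseudogene names left out of the nuclear genes, 4 reached 60 reads. ATP5G1P4, a copy of ATP5G1, had 11, 4 and 45 reads, highest with palbociclib, where ATP5G1 itself was lowest. UQCRFS1P1 had 83, 66 and 79 reads, NDUFV2P1 146, 163 and 106 and COX6A1P2 34, 23 and 19. NDUFV2P1 had more reads in each library than NDUFV2, the gene it copies, which had 11, 8 and 12.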
